A study of Mus musculus with 6 samples.

Results

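The genes described here are those with which a cell shows peptides to T cells: the major histocompatibility complex (MHC) genes of the mouse, whose symbols begin with H2-, and 15 genes that load, regulate or accompany them. They were taken by symbol from the authors' deposited table of 15982 genes, which holds 26 symbols beginning with H2- and all 15 others (B2m, Cd74, Ciita, Tap1, Tap2, Tapbp, Tapbpl, Nlrc5, Erap1, Cd80, Cd86, Cd40, Rfx5, Rfxap and Rfxank), 41 in all. No symbol of the 41 was repeated. By role they fall into 17 class I genes, 9 class II genes (with Cd74), 5 genes of peptide loading, 5 transcription regulators and 3 costimulatory genes. The class I genes are B2m and those named as heavy chains, of which H2-Bl, H2-T10 and H2-T-ps are annotated as pseudogenes. These lists do not cover 2 further H2- symbols, H2-Ke6 and H2-K2, and H2-K2 is annotated as a pseudogene too. H2-Ke6 lies in the MHC region but encodes an enzyme of steroid and fatty acid metabolism, so the label of antigen presentation does not cover it.

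The RNA came from macrophages grown from mouse bone marrow (BMMs, primary cells) of 2 genotypes, Ctrl and Bub1 cKO; in the latter the mitotic checkpoint kinase Bub1 was deleted in myeloid cells. Both groups were kept for 3 days in M-CSF, the macrophage growth factor, at 20 ng/ml, followed by 2 days in which RANKL at 50 ng/ml, which drives osteoclast formation, was added to the same dose of M-CSF, per the labels' protocols. The labels list 3 libraries per genotype and do not say whether these were separate animals or cultures, so p-values measure the spread between libraries, which may be technical. The sources used here give no Cre driver, Ctrl alleles, strain, MHC haplotype, age or sex. The series title is about osteoclasts, NF-κB and arthritis, and antigen presentation is not named as a question of the study. The deposited table gives 1 expression value per gene and genotype, read as TPM (transcripts of a gene relative to all transcripts, corrected for length), and values per library were not used here.

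MHC class I molecules consist of a heavy chain bound to beta-2 microglobulin and carry peptides from the cytosol, which the transporter TAP moves into the endoplasmic reticulum. Class II molecules are pairs of an alpha and a beta chain that are held by the invariant chain until they reach endosomes, where proteases and H2-DM exchange that chain for peptides of engulfed material. Macrophages carry class I at all times and raise class II when interferon gamma induces the coactivator CIITA, and the related coactivator NLRC5 acts on class I genes. Both are recruited to a promoter module made of an X box, bound by the RFX complex and CREB, and a Y box, bound by NF-Y.

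No antigen presentation gene passed the authors' test between the genotypes. At the authors' adjusted p under 0.05 the count was 0 of 41, where 0.181% of all genes passed, at 0.1 it was 0 of 41, where 0.275% passed, and at an unadjusted p under 0.05 it was 2 of 41, where 4.81% of all genes did. With p adjusted afresh over genes of at least 1 TPM, or of at least 5 TPM, it was 0 again, where 0.34% and 0.531% of such genes passed. The 2 genes were H2-K1 and Nlrc5, both lower in Bub1 cKO (2.46% of all genes were lower at that threshold). The tool is the test behind the RaNA-seq table, which the sources used here do not name. The values below are therefore levels and differences with their errors, and the share of genes at an unadjusted p under 0.05 is close to that of the whole table.

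Class II genes had mostly higher group values in Bub1 cKO, and class I genes went both ways. Among the 9 class I genes whose mean reaches 1 TPM the median log2 change was -0.23, and among the 7 such class II genes it was 0.42, beside -0.01 over the 10881 genes of the table that reach it. The test statistic was positive in 4 of 9 class I and in 6 of 7 class II genes, beside 49.6% of all genes with that mean. The class I median is the value of H2-T24, whose change by the test itself was 0.015. Within class I, B2m and the classical heavy chain genes H2-K1 and H2-D1 had negative statistics. Of the 6 non-classical genes 4 had positive ones, with a median log2 change of 0.07 over the 6. A gene that reaches this mean through 1 genotype only had to differ, so these counts describe the genes and support nothing. No test of one class against the other was made, since genes of a class are not replicates. A log2 change is that of the deposited group values with a pseudocount of 1, and the test's own log2 change is the statistic times its standard error, from which the 95% intervals below were computed. In bulk RNA, fewer cells of a type and less RNA per cell cannot be told apart.

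**Figure D1:**
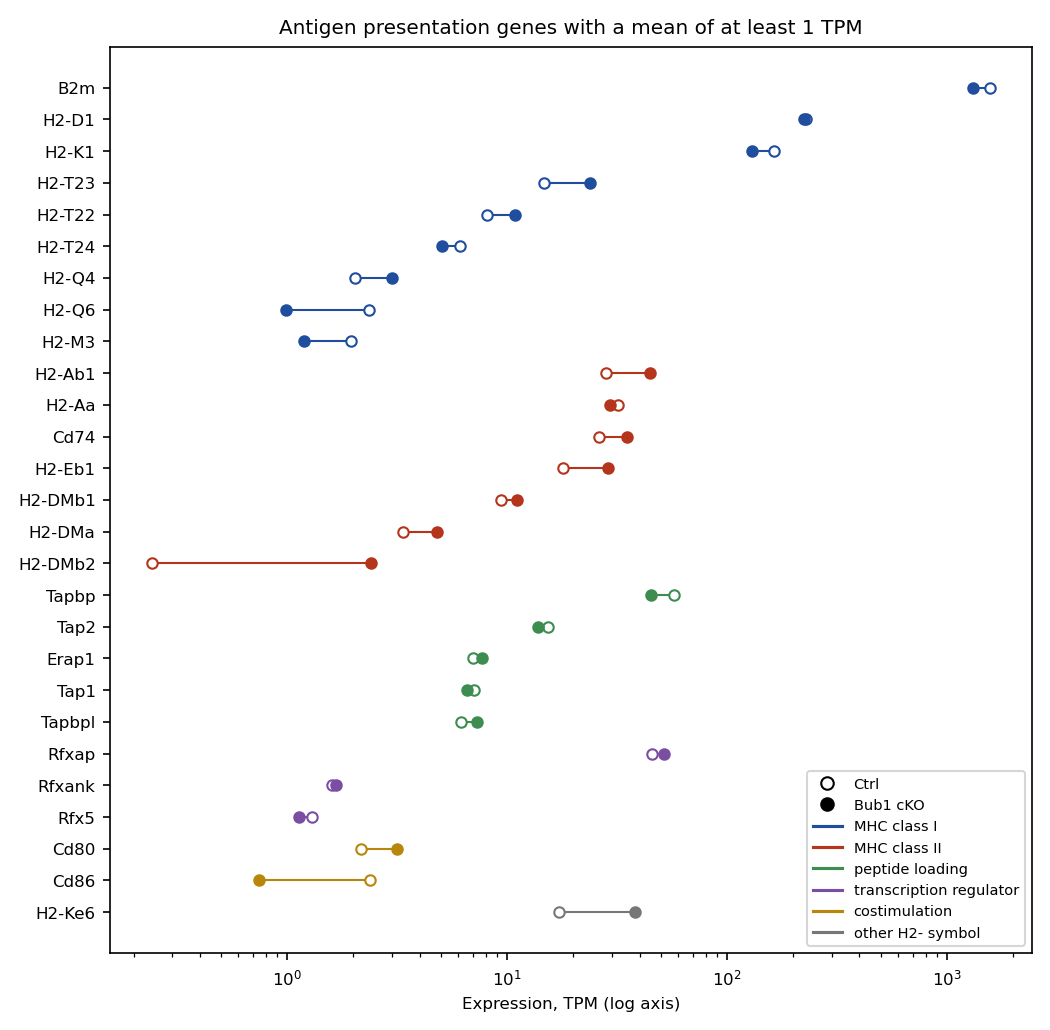
Expression in TPM (log axis) of the 27 antigen presentation genes whose mean reaches 1 TPM, with Ctrl as open and Bub1 cKO as filled circles, 1 group value each, coloured by role. H2-K1, H2-D1 and B2m lie at or above 129 TPM in both genotypes, and the class II genes at or below 44.7 TPM.

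Promoters were matched by symbol in the RefSeq table of GRCm38.p6 for 28 of the 41 genes, each as 250 bases before to 50 after the transcription start. H2-Ab1, Cd74, Tap2, Tapbpl, Rfxap, Cd86 and H2-T24 have no entry there among the genes of at least 1 TPM. Stretches of 110 bases that end 1 base before the start are shown, from H2-Eb1 and H2-Aa of class II and from H2-K1 and B2m of class I. The X-Y module is shared across classes. The group values of the neighbours H2-Eb1 and H2-Aa differ below, with intervals that overlap. A link of promoter letters to levels was not tested. Capitals mark the Y box core CCAAT (read as ATTGG on the other strand), the CREB-type core TGACG, and AACTGATGATGCT, the longest stretch that the same window of H2-Eb1 shares with that of H2-DMb1, in the place of the X box.
H2-Eb1 (chr17:34305757-34305866, plus strand): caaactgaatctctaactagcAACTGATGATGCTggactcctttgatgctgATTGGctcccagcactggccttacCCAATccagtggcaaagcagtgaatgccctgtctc
H2-Aa (chr17:34287824-34287933, minus strand): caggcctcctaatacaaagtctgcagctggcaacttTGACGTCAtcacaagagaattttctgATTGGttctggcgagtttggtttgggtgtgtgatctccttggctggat
H2-K1 (chr17:34000348-34000457, minus strand): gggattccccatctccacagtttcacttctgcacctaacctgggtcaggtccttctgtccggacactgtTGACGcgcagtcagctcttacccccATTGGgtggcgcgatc
B2m (chr2:122147577-122147686, plus strand): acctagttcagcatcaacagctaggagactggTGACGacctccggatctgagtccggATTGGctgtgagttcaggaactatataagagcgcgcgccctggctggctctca
In H2-Aa the ATTGG begins 26 bases after the start of TGACG, which here overlaps a second TGACG on the opposite strand, and in H2-K1 and B2m it begins 25 bases after it. H2-Eb1 has no TGACG in its 300 bases and holds AACTGATGATGCT starting 89 bases before the transcription start, and H2-DMb1 holds the same letters 92 bases before its start.

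The Y box core was present, on either strand, in 12 of 14 class I and 7 of 7 class II genes with a promoter entry, against 37.4% of all 32851 promoters. TGACG on either strand was present in 8 of 14 and 1 of 7, against 20.8%. TGACG followed 25 or 26 bases later by ATTGG occurred in 5 members (B2m, H2-Aa, H2-D1, H2-K1 and H2-M3) and in 0.164% of all promoters, and AACTGATGATGCT in 2 members and in 3 of all promoters (0.00913%), on either strand. These last motifs were chosen after the sequences were seen. The core of the interferon-stimulated response element (GAAA, any 2 bases, GAAA) and the gamma-activated sequence (TTC, any 3 bases, GAA), on either strand, were present in 4 (B2m, Erap1, H2-T22 and H2-T23) and 2 (H2-DMb2 and H2-M3) of the 28, against 3.44% and 8.30% of all promoters. Matches are letters in a window and do not show binding, and class I genes are related copies, so their matches are not independent.

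B2m and the classical heavy chain genes H2-K1 and H2-D1 were the most strongly expressed of the set. B2m (ENSMUSG00000060802.8), the light chain common to all class I molecules, stood at 1570 TPM for Ctrl and 1311 TPM for Bub1 cKO by the authors' deposited table. The heavy chain gene H2-K1 (chromosome 17, 33996017 to 34000347 on the minus strand, GRCm38) stood at 163 and 129 TPM by the authors' deposited table. The heavy chain gene H2-D1 stood at 229 and 224 TPM by the authors' deposited table. All 3 were lower in Bub1 cKO, by a small amount and with narrow errors. The log2 change of H2-K1 was -0.33 (standard error 0.14), and its adjusted p of 0.874 by the authors' deposited table was the smallest of the 41 genes. The 95% interval of its test's own change ran from -0.60 to -0.043, so a log2 change below -0.60 lies outside it. For B2m the log2 change was -0.26 and the interval ran from -0.52 to 0.034. H2-D1 had a log2 change of -0.03 from its group values, while the test's own change was -0.19 (95% interval -0.44 to 0.060).

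Summed, H2-K1 and H2-D1 went from 391 TPM for Ctrl to 354 TPM for Bub1 cKO, and B2m exceeded that sum 4.01 times in Ctrl and 3.71 times in Bub1 cKO. These sums and ratios have no error, since they rest on 1 value per genotype. Reads lie near transcript 3' ends, where TPM lowers long transcripts, so ratios between genes here and below are not ratios of molecules. B2m lies on chromosome 2, 5.65 Mb from Bub1, and the part of variants linked to the targeted locus was not tested. Of all 50-base words in the last 300 bases of H2-K1 and H2-D1 transcripts (GENCODE M21, protein-coding), 9.54% and 13.5% also occur in another gene, most often in the other of the pair. B2m shared none.

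Non-classical class I genes, which present restricted sets of peptides or none, went both ways. H2-T23, which encodes Qa-1, the ligand of CD94/NKG2 receptors, stood at 14.7 TPM for Ctrl and 23.8 TPM for Bub1 cKO by the authors' deposited table. Its log2 change of 0.66 (standard error 0.37, adjusted p = 0.985 by the authors' deposited table) was the largest positive one of class I. The 95% interval ran from -0.017 to 1.43. H2-T22, a ligand of some gamma-delta T cell receptors, stood at 8.08 and 10.8 TPM, and H2-Q4 at 2.03 and 2.99 TPM by the authors' deposited table. H2-Q6, a Qa-2 gene, stood at 2.36 and 0.988 TPM, and H2-M3, which presents N-formylated bacterial peptides, at 1.95 and 1.19 TPM by the authors' deposited table. H2-T24 stood at 6.12 and 5.07 TPM by the authors' deposited table, while its statistic was positive (0.016), the only member whose statistic and log2 change differ in sign. So 3 of these 6 genes had a higher and 3 a lower group value in Bub1 cKO, and every interval contained 0.

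Read assignment limits these genes. Of the 50-base words at the 3' ends, 49.0% were shared with another gene for H2-T22 (with H2-T10) and 49.4% for H2-Q6 (most often with H2-Q7). H2-T10 stood at 0.291 TPM for Ctrl and 0 in Bub1 cKO, and H2-Q7 at 1.45 and 0.357 TPM, lower in Bub1 cKO as H2-Q6 was. The part of a shift of reads between MHC copies was not tested. H2-T23 shared 50.6% of its words, most often with Rab33b, a gene outside the MHC set (31.1%), and 7.97% with H2-T-ps. H2-Q4 shared 45.4%, most often with Gm43321 (25.9%) and none with another of the 41 genes. H2-M3 shared no such word, and H2-T24 shared 8.37%, chiefly with Chst10.

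Class II chains were present at low levels, and the beta chains differed more than the alpha chain. H2-Ab1, the beta chain of I-A, stood at 28.1 TPM for Ctrl and 44.7 TPM for Bub1 cKO by the authors' deposited table. H2-Aa, the alpha chain that pairs with it, stood at 31.9 and 29.5 TPM by the authors' deposited table. H2-Eb1, the beta chain of I-E, stood at 18.0 and 28.8 TPM by the authors' deposited table. The beta chains were thus 1.59 and 1.60 times as high in Bub1 cKO as in Ctrl, while H2-Aa was 0.924 times as high. The log2 changes were 0.65 for H2-Ab1 (standard error 0.46), 0.65 for H2-Eb1 (0.45) and -0.11 for H2-Aa (0.43) by the authors' deposited table, with adjusted p of 0.985 for each. The 95% intervals of the test's own change ran from -0.20 to 1.61, from -0.15 to 1.60 and from -0.93 to 0.76, and they overlap. The ratio of H2-Ab1 to H2-Aa was 0.879 in Ctrl and 1.52 in Bub1 cKO, again with no error. No 50-base word at the 3' ends of these 3 genes occurs in another gene.

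Cd74, the invariant chain gene on chromosome 18, stood at 26.1 TPM for Ctrl and 35.2 TPM for Bub1 cKO by the authors' deposited table. The log2 change of Cd74 was 0.41 (standard error 0.34), and the 95% interval ran from -0.20 to 1.12. Together H2-Aa, H2-Ab1, H2-Eb1 and Cd74 amounted to 104 TPM for Ctrl and 138 TPM for Bub1 cKO, or 0.266 and 0.391 of the sum of H2-K1 and H2-D1.

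The peptide editor H2-DM, an alpha-beta pair that releases the invariant chain fragment from class II, was low. H2-DMb1 stood at 9.39 and 11.1 TPM and H2-DMa at 3.35 and 4.82 TPM by the authors' deposited table, Ctrl first. The second beta chain gene, H2-DMb2, stood at 0.243 and 2.41 TPM by the authors' deposited table. Only the Bub1 cKO value lifts its mean to 1 TPM, which fixed the direction of this gene. Its log2 change was 1.46 from the group values and 3.49 by the test itself, with a 95% interval from -0.37 to 7.36, the widest of class II genes with that mean. With a pseudocount of 5 or 0.1 the change from the group values of H2-DMb2 was 0.50 or 2.87. Without H2-DMb2 the class II median was 0.42, as with it. H2-DMb1 and H2-DMb2 shared no 50-base word with each other at their 3' ends, and H2-DMb2 shared 16.3%, chiefly with Zw10. H2-Oa and H2-Ob, the chains of H2-O, which inhibits H2-DM, stood at 0.409 and 0.751 TPM for Ctrl and at 0 and 0.121 TPM for Bub1 cKO by the authors' deposited table.

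**Figure D2:**
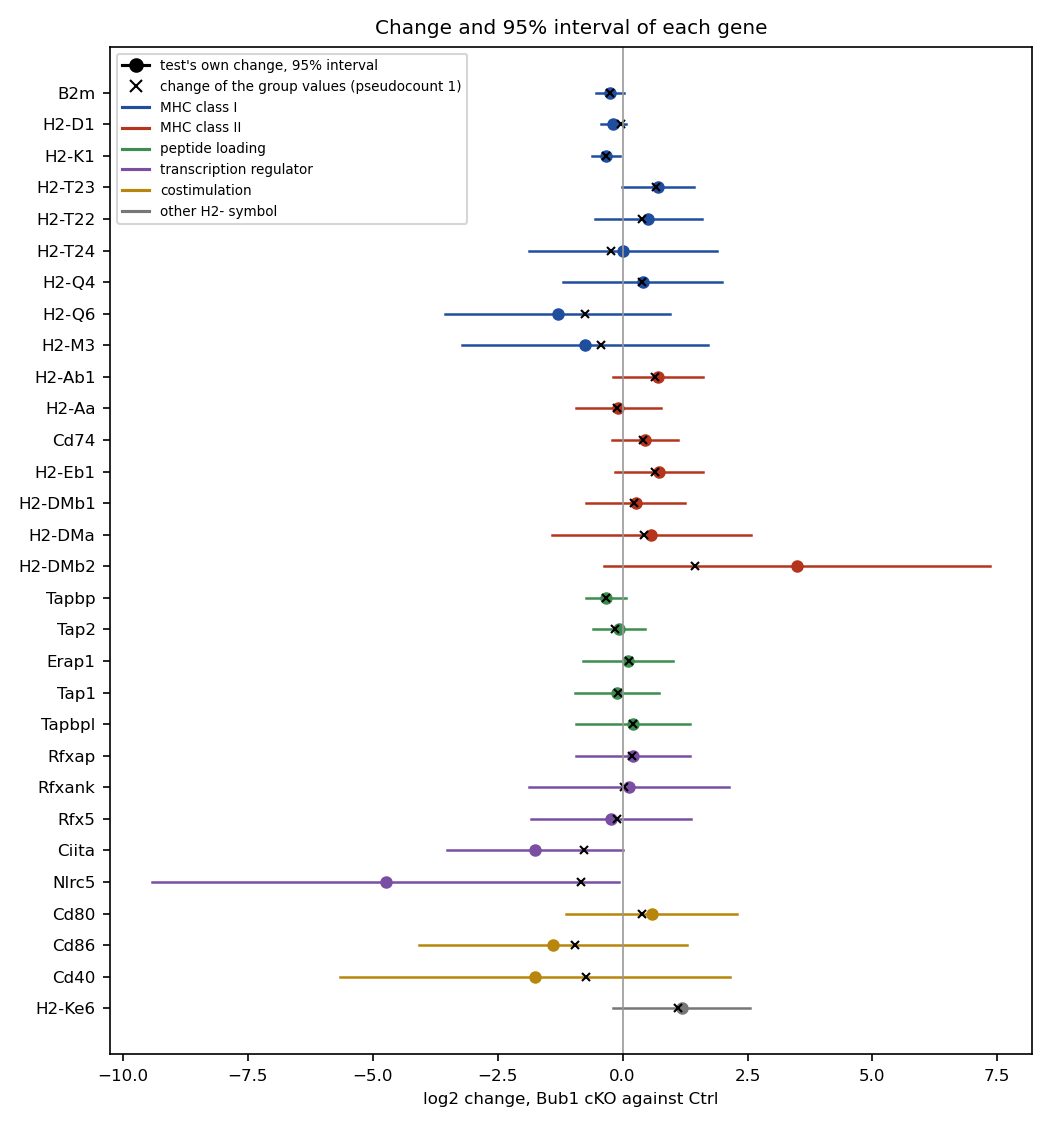
The log2 change of Bub1 cKO against Ctrl for the 27 genes of at least 1 TPM with Ciita, Nlrc5 and Cd40: circles and lines give the test's own change with its 95% interval, crosses the change of the group values, and colours the roles. The intervals of H2-K1 (-0.60 to -0.043) and Nlrc5 (-9.42 to -0.065) lie below 0, and all others contain 0.

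Genes of peptide loading, all measured above 6 TPM, showed small differences. Tapbp, which encodes tapasin, the bridge between class I and TAP, stood at 57.1 TPM for Ctrl and 44.9 TPM for Bub1 cKO, with a log2 change of -0.34 and a standard error of 0.20 by the authors' deposited table. Its 95% interval ran from -0.74 to 0.058. The TAP subunits Tap1 and Tap2 stood at 7.09 and 15.4 TPM for Ctrl and at 6.56 and 13.8 TPM for Bub1 cKO by the authors' deposited table, so Tap2 was 2.17 times Tap1 in Ctrl and 2.10 times in Bub1 cKO. Tapbpl, the tapasin-related editor, and Erap1, the aminopeptidase that trims peptides, stood at 6.18 and 6.97 TPM for Ctrl and at 7.29 and 7.72 TPM for Bub1 cKO by the authors' deposited table. Over the 5 genes the median log2 change was -0.10. Of their statistics 2 were positive and 3 negative, beside 49.6% positive among all genes of at least 1 TPM. The interval of Tap2, from -0.60 to 0.44, was the narrowest after that of Tapbp.

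The coactivators were both lower in Bub1 cKO, at levels near the limit of measurement. Ciita (chromosome 16, 10480059 to 10528418), the master regulator of class II, stood at 1.30 TPM for Ctrl and 0.345 TPM for Bub1 cKO by the authors' deposited table. For Ciita the log2 change was -0.77 from the group values and -1.75 by the test itself, with a 95% interval from -3.51 to 0.011 and an unadjusted p of 0.051 by the authors' deposited table. Nlrc5 stood at 0.784 TPM for Ctrl and is listed at 0 in Bub1 cKO by the authors' deposited table (unadjusted p = 0.047, adjusted p = 0.985), and its interval ran from -9.42 to -0.065. The change from group values rests on the pseudocount: with 5 or 0.1 in place of 1 it was -0.24 or -1.65 for Ciita and -0.21 or -3.14 for Nlrc5. Of the 9 class II genes 6 had higher group values in Bub1 cKO, and 3, H2-Aa, H2-Oa and H2-Ob, had lower ones, as Ciita did. The intervals of Ciita and of all 9 contained 0, so no relation between them can be read here. Of the RFX subunits, Rfxap stood at 45.6 and 51.8 TPM, Rfxank at 1.60 and 1.67 TPM and Rfx5 at 1.29 and 1.13 TPM by the authors' deposited table, Ctrl first. Rfxap was far above the other subunits in TPM, which lowers long transcripts when reads lie near 3' ends, so the relative amounts are uncertain. No interval of the 3 excluded 0 (the widest ran from -1.87 to 2.13, for Rfxank).

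Costimulatory genes were barely expressed. Cd80 and Cd86, the B7 ligands of CD28, stood at 2.17 and 2.38 TPM for Ctrl and at 3.16 and 0.743 TPM for Bub1 cKO by the authors' deposited table, so their order was reversed. Cd40, the receptor through which T cells activate macrophages, stood at 1.28 TPM for Ctrl and 0.363 TPM for Bub1 cKO by the authors' deposited table. The 95% intervals were wide: -1.13 to 2.29 for Cd80, -4.07 to 1.30 for Cd86 and -5.66 to 2.15 for Cd40. Each contained 0, so no difference of these genes was resolved here.

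The 14 members with a mean under 1 TPM had negative statistics, beside 49.5% of the 5101 genes of the table with such a mean. For 3 of them, Ciita, Cd40 and H2-Q7, the Ctrl value is above 1 TPM. Only the Bub1 cKO value brought their mean under it, which fixed their direction, so the count of 14 supports nothing. The other 11 have a Ctrl value under 1 TPM, which did not fix their direction, and all 11 had negative statistics as well. No test of these counts was made. The 14 are the class I genes H2-Q7, H2-M2, H2-Q10, H2-Bl, H2-T10, H2-T-ps, H2-T3 and H2-Q2, with H2-Oa, H2-Ob, Ciita, Nlrc5, Cd40 and H2-K2. Their values lay between 0.113 and 1.45 TPM for Ctrl and between 0 and 0.368 TPM for Bub1 cKO by the authors' deposited table, where 6 of them are listed at 0. Their summed level was 8.58 TPM for Ctrl and 2.29 TPM for Bub1 cKO. Standard errors ran from 0.90 to 4.08 on the log2 scale, only Nlrc5 had an unadjusted p under 0.05, and members such as H2-T10 and H2-Q7 share 3' sequence with relatives, so the 14 are not independent. H2-DMb2 would have stood among the genes under 1 TPM but for its value in Bub1 cKO.

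**Figure D3:**
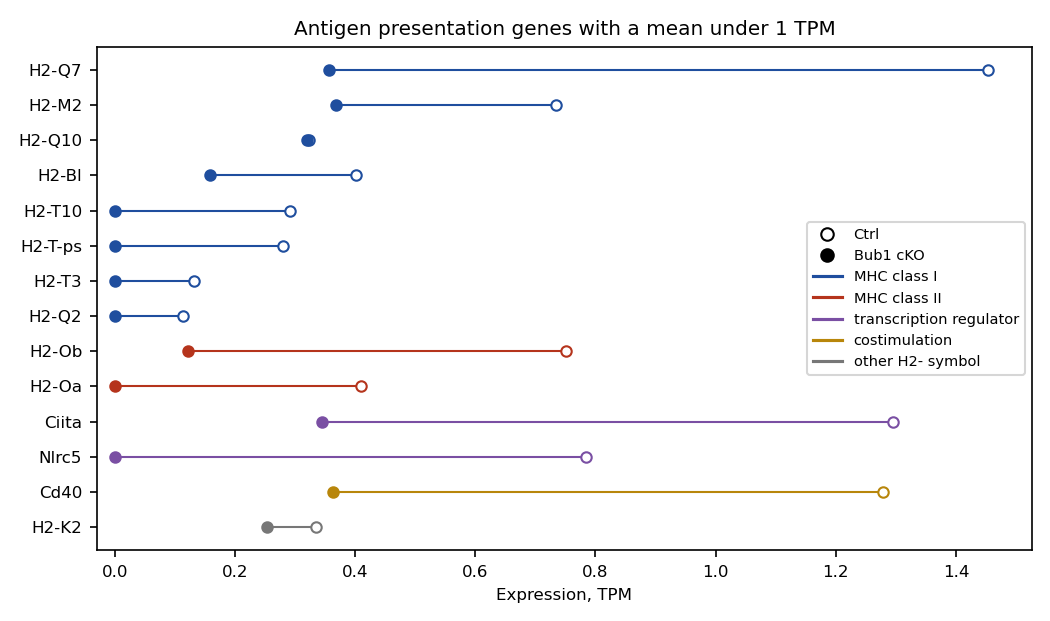
Expression in TPM of the 14 antigen presentation genes with a mean under 1 TPM, with Ctrl as open and Bub1 cKO as filled circles, 1 group value each, coloured by role. Every filled circle lies at or left of its open circle, and 6 lie at 0.

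Of the 41 genes 29 lie on chromosome 17, in the MHC region or just beside it (GRCm38, GENCODE M21). From H2-DMa to H2-Eb1, class II genes stand beside Tap1 and Tap2, which lie between H2-DMb1 and H2-Ob. The class II genes with higher group values were not a continuous block: Tap1 and Tap2 (log2 changes -0.10 and -0.15), H2-Ob and H2-Aa were lower between them. H2-Aa lies between H2-Ab1 (34257689 to 34269419) and H2-Eb1 (34305867 to 34316674). H2-Ke6, 27.7 kb from the start of H2-K1, stood at 17.2 TPM for Ctrl and 38.0 TPM for Bub1 cKO, with a log2 change of 1.10 (standard error 0.70, adjusted p = 0.985) by the authors' deposited table. Of its 3' words, 75.4% also occur in Gm20427, so reads of the 2 genes cannot be told apart over most of that end.

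**Figure D4:**
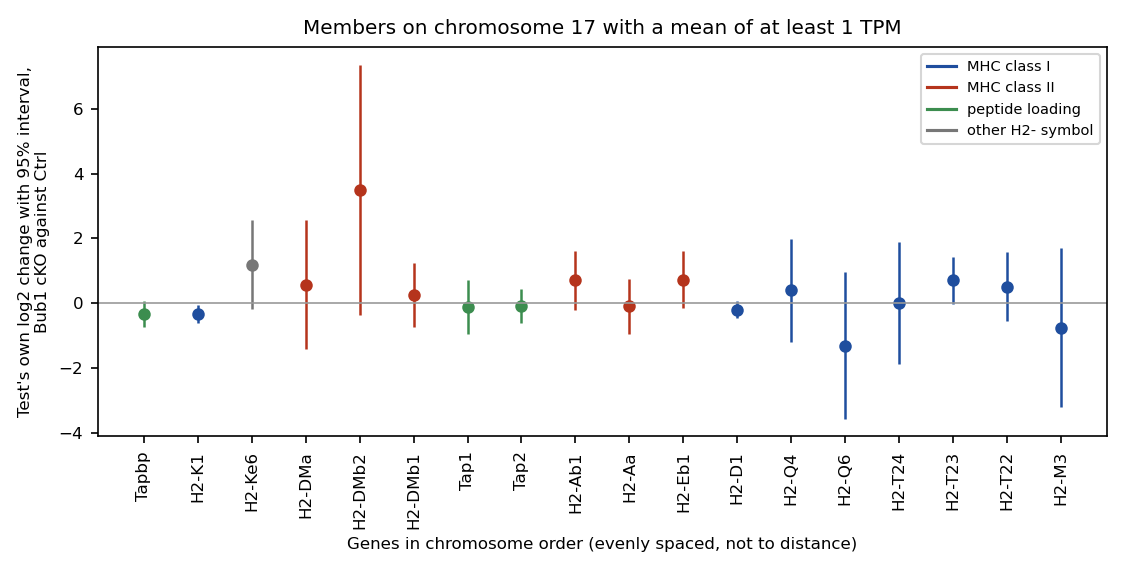
The test's own log2 change (Bub1 cKO against Ctrl) with its 95% interval for the 18 members on chromosome 17 whose mean reaches 1 TPM, in chromosome order with even spacing and coloured by role. H2-Aa (-0.09) lies between H2-Ab1 (0.71) and H2-Eb1 (0.72), and only the interval of H2-K1 excludes 0.

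Other genes of the pathway were taken from a list of 41 symbols, of which 38 have a value. The others are Pdcd1lg2 and the symbols Marchf1 and Marchf8, which are second names of March1 and March8. At an unadjusted p under 0.05, 6 were lower in Bub1 cKO and 1 was higher, beside 2.46% and 2.35% of all genes, and 0 of 38 passed the authors' adjusted p under 0.05. In the endosomal processing of class II, 3 of 7 genes were lower at that threshold. Ctsl, the lysosomal protease cathepsin L, stood at 179 TPM for Ctrl and 139 TPM for Bub1 cKO by the authors' deposited table (adjusted p = 0.624). Ifi30, a thiol reductase that opens disulfide bonds of antigens, stood at 23.9 and 8.58 TPM, and the asparagine-specific protease Lgmn at 30.7 and 20.6 TPM by the authors' deposited table. The log2 changes were -0.37, -1.38 and -0.56 for Ctsl, Ifi30 and Lgmn by the authors' deposited table. Ctss, the protease that cleaves the invariant chain, stood at 589 and 485 TPM by the authors' deposited table, with an unadjusted p of 0.072. Of the 7 processing genes 5 had lower group values in Bub1 cKO, and March1 and March8 were nearly level (log2 changes 0.014 and 0.006). Of the 9 class II genes 6 had higher group values and 3 lower ones (H2-Aa, H2-Oa and H2-Ob), and every class II interval contained 0. No test of processing genes against class II genes was made.

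Peptide supply and folding for class I showed 1 difference among 8 genes at an unadjusted p under 0.05, where 4.81% of all genes passed. It was the chaperone gene Calr at 552 and 693 TPM (adjusted p = 0.278 by the authors' deposited table). The immunoproteasome subunits Psmb8 and Psmb9 stood at 71.7 and 142 TPM for Ctrl and at 72.0 and 118 TPM for Bub1 cKO by the authors' deposited table. Among 13 factors and signal components 3 had a positive statistic, beside 49.9% of all genes, and none had an unadjusted p under 0.05. Their group values were higher in 5 and lower in 8, since Irf2, Ifngr1 and Nfyc, picked out after their values were seen, had higher values with negative statistics. The smallest p was that of Irf1, an interferon-induced factor that acts on MHC promoters, at 14.5 and 8.77 TPM by the authors' deposited table (unadjusted p = 0.082). Among surface ligands, Cd274, which encodes PD-L1, stood at 3.64 and 1.22 TPM and the adhesion gene Icam1 at 15.1 and 8.49 TPM by the authors' deposited table, both with an unadjusted p under 0.05 (0.035 and 0.013).

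**Figure D5:**
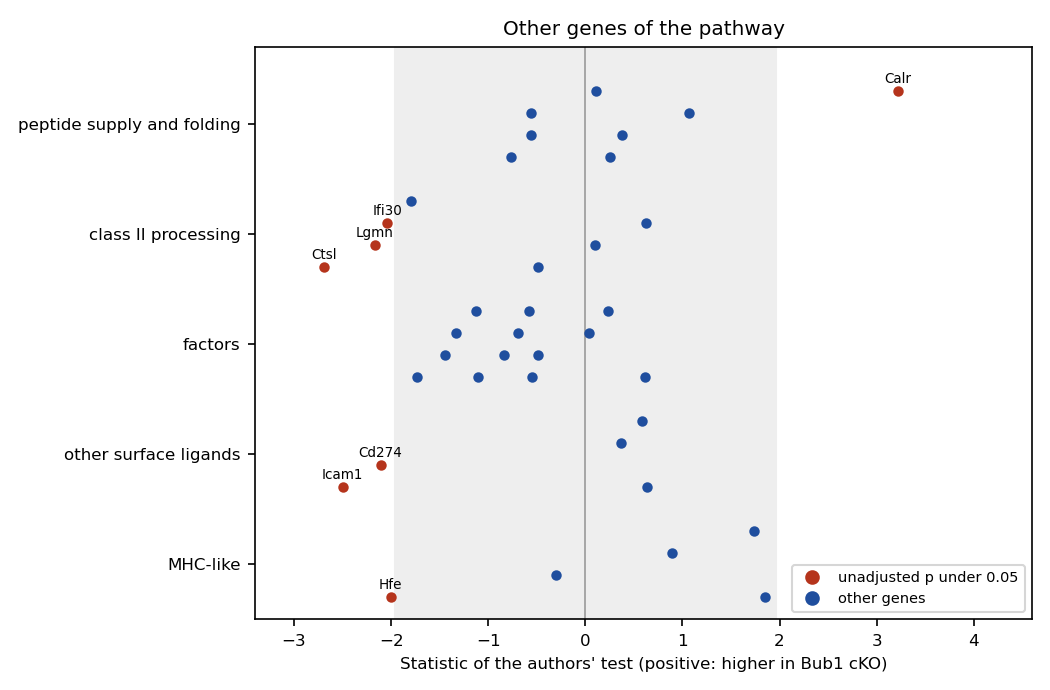
The statistic of the authors' test for 38 other genes of the pathway in 5 groups, with positive values higher in Bub1 cKO, red for an unadjusted p under 0.05 and grey for the range of statistics outside it. Calr lies to the right, and Ctsl, Lgmn, Ifi30, Icam1, Cd274 and Hfe lie to the left.

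Markers of cell types that carry class II, and of others, were read in the same table. Macrophage and osteoclast markers were present in both groups, with all 7 and all 10 found, and sums of 2600 and 2029 TPM for Ctrl and 1220 and 2342 TPM for Bub1 cKO. Lyz2 made up most of the macrophage sum and was the one macrophage marker past the authors' adjusted p (2141 and 762 TPM by the authors' deposited table). Nearly all of the difference in that sum was Lyz2, so the sum does not describe the other macrophage markers. Of the 7 macrophage markers 5 had lower group values in Bub1 cKO and 2 higher ones, Cd68 (260 and 306 TPM) and Mertk (2.21 and 2.66 TPM). Of 8 dendritic cell markers 6 have a value, and their sum was 9.02 TPM for Ctrl and 3.46 TPM for Bub1 cKO. Flt3, Zbtb46, Cd209a and Batf3 were each under 1 TPM in both groups, and Itgax, with 5.34 and 1.69 TPM, has a positive statistic (2.35), against its lower level, by the authors' deposited table. Of 6 B cell markers 3 have a value, with sums of 3.87 and 3.77 TPM, nearly all of it Ebf1, and Pax5 is listed at 0.015 TPM for Ctrl and 0 in Bub1 cKO by the authors' deposited table. The 5 T cell markers summed to 1.27 and 0.407 TPM. Neutrophil and erythroid markers had higher sums in Bub1 cKO, with 94.8 and 19.6 TPM for Ctrl and 228 and 358 TPM for Bub1 cKO. Statistics were positive in 7 of 7 and 5 of 5, beside 49.9% of all genes. Past the authors' adjusted p were 1 and 2 genes, beside 0.181% of all genes. Most of the neutrophil sum was S100a8 (41.9 TPM for Ctrl, 92.8 TPM for Bub1 cKO) and S100a9 (38.0 and 115 TPM). Elane, Mpo and Camp stood at 1.52, 0.419 and 0.508 TPM in Bub1 cKO. The neutrophil gene Ltf had a lower level, with 12.3 TPM for Ctrl and 6.74 TPM for Bub1 cKO, against its positive statistic, by the authors' deposited table. Whether neutrophil or erythroid cells were present, and their part in the differences of MHC genes, was not tested. Bub1 itself stood at 6.73 TPM for Ctrl and 5.32 TPM for Bub1 cKO (adjusted p = 0.985 by the authors' deposited table), and because the deleted exons are not known here and reads come from transcript ends, its level is no check of genotype.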

How the data were processed

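Per the labels' protocols, 25 ng of total RNA entered a QuantSeq library, in which reads lie near transcript 3' ends. The file header names RaNA-seq, and no aligner, build, annotation or test is given in the sources used here. The authors deposited 1 table of 15982 genes with 3 expression columns, read as TPM. The Ctrl and Bub1 cKO columns sum to 999891 and 999954, and of 2773 genes with a Ctrl value above 0 and under 0.5 at most 19 share 1 value, where CPM of 3 libraries would share a few steps. In a 3' library, TPM lowers long transcripts. The log2 change deposited by the authors was recomputed as the log2 ratio of group values after adding 1 to each, within 0.002 for all 15982 genes, and is too small for low genes. The authors' deposited statistic and standard error were taken as scores, and p-values and adjusted p-values are the authors' deposited ones. Depth is unknown, and the standard error stands for precision.

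The design assumed a fit per library only if the table held such values, and it does not. Computed here, with Python 3.11.15, pandas 2.3.3 and scipy 1.17.1, were the test's own log2 change (statistic times standard error), its 95% interval, medians, counts, 50-base words shared between the last 300 bases of transcripts, and motif positions. Members and lists were chosen with earlier results of these data known. Named were all members of at least 1 TPM, all regulators and costimulatory genes, and members with an unadjusted p under 0.05. The remaining ones were given by range, except H2-Oa, H2-Ob, H2-T10 and H2-Q7, whose values were given after they were seen. Genes were placed on GENCODE M21 by Ensembl ID without its version (15902 of 15982). H2-K2 was not taken by the list of class I genes. The Benjamini-Hochberg step was tested on simulated data. Alternatives were other pseudocounts, minimum levels, thresholds and the test's own change.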

Additional observations from a re-analysis of the deposited data

How the results depend on the processing

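The count of 0 genes past the authors' adjusted p held at a threshold of 0.1 and with p adjusted afresh over genes reaching 1 or 5 TPM, and at an unadjusted p under 0.05 it was 2. The class I median stayed negative (-0.35 to -0.13) and the class II median positive (0.37 to 0.58) under all alternatives run, and their difference of 0.65 ranged from 0.51 to 0.77. Alternatives without H2-DMb2 and without genes sharing 3' words were chosen after seeing the data, and the latter leaves 2 class I genes. With a pseudocount of 5 or 0.1 the log2 change of 15 or 9 of 30 named genes, mostly low ones, moved by over 1.5 times, though each by less than its large standard error and none in sign: from -0.84 to -0.21 or -3.14 for Nlrc5, from -0.77 to -0.24 or -1.65 for Ciita, from -0.95 to -0.36 or -1.56 for Cd86, from -0.74 to -0.23 or -1.57 for Cd40, and from 1.46 to 0.50 or 2.87 for H2-DMb2. By the test's own change 4 moved by more, H2-D1 (-0.19), H2-DMb2 (3.49), Ciita (-1.75) and Nlrc5 (-4.74), and H2-T24 changed sign (0.015 in place of -0.23). The cause was not tested. Leaving out replicates could not be run on group values. No paired analysis was possible because the table holds 1 value per genotype. Precision limits genes under 1 TPM, whose standard errors have a median of 3.43.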

Other observations

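MHC-like genes outside the main set went both ways. Hfe, which with B2m limits iron uptake through the transferrin receptor, stood at 5.36 TPM for Ctrl and 1.78 TPM for Bub1 cKO by the authors' deposited table (log2 change -1.19, unadjusted p = 0.045, adjusted p = 0.985). Procr, the endothelial protein C receptor gene, stood at 1.52 and 4.64 TPM, with an unadjusted p of 0.064 by the authors' deposited table. Mr1, which presents vitamin B metabolites to mucosal-associated T cells, is listed at 0 in Ctrl and at 0.718 TPM for Bub1 cKO by the authors' deposited table. Fcgrt, the neonatal Fc receptor gene, stood at 10.1 and 7.91 TPM and Cd1d1, the lipid-presenting molecule, at 0.385 and 1.17 TPM by the authors' deposited table. Of the 5 genes 3 had a positive statistic, beside 49.9% of all genes. Only Hfe had an unadjusted p under 0.05, where 4.81% of all genes did.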
